A study of Mus musculus with 3 samples.

Results

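The genes described here are Sparc, Sparcl1, Ptn, Ptprz1, Ntrk2 and Fgfr3, 6 of the 15535 genes listed in at least 1 of 3 count tables of mouse dentate gyrus cells. All 6 are among the 12324 genes listed in every table. They were chosen by name, for the cell types in which earlier results of these data had shown them, so their levels by cell type are a description and were not tested. Each gene was followed across cell types that were called from other genes and across the 3 groups of the study.

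The data are 3 single-cell libraries of trypsin-dissociated dentate gyrus, 1 for each group, and no sort is described. The control library came from mice of 8 weeks in standard housing, the runner library from littermates of the same age that had a running wheel for 12 days, and the aged library from mice of 14 months without a wheel. The sample labels give the strain of all 3 libraries as hGFAP-eGFP, a line in which the human GFAP promoter drives green fluorescent protein in astrocytes and neural stem cells, while the series design calls the mice WT and names the reporter with the aged animals. How many mice were pooled for a library is not stated in the labels. With 1 library per group the groups have no replicates, so "higher" and "lower" describe these libraries, no test between groups was run, and every 95% interval covers counting error only.

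Sparc and Sparcl1 (hevin) are secreted matricellular proteins, which modulate contacts between cells and matrix and, in the brain, act on synapse formation, hevin in favour of it and Sparc against it. Ptn encodes pleiotrophin, a heparin-binding growth factor, and Ptprz1 encodes its receptor, a tyrosine phosphatase of glial cells that pleiotrophin inhibits. Ntrk2 encodes TrkB, the receptor of the neurotrophin BDNF, which astrocytes express largely as a truncated form without the kinase. Fgfr3 encodes a receptor tyrosine kinase for fibroblast growth factors that marks the astrocyte lineage.

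In GENCODE M21 on GRCm38, Sparc lies on the minus strand of chr11:55394500-55423183 and Sparcl1 on the minus strand of chr5:104079111-104113733. Ptn lies on the minus strand of chr6:36714929-36810220 and Ptprz1 on the plus strand of chr6:22875502-23052916. Ntrk2 lies on the plus strand of chr13:58806569-59133970 and Fgfr3 on the plus strand of chr5:33721674-33737068. Ntrk2 has 7 protein-coding transcripts with 6 distinct ends, and the tables give 1 count per gene, so full-length and truncated TrkB cannot be told apart. The annotation also places an antisense gene, Gm26703, over Sparcl1, G630022F23Rik opposite Fgfr3, and C630044B11Rik on the same strand within Ntrk2. How reads over such overlaps were assigned is not stated in the labels.

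The ligand Ptn and its receptor Ptprz1 were read in the same 2 glial classes, and the sequences just upstream of them are shown because they differ in their content of CG dinucleotides, which are in capitals. They come from RefSeq on GRCm38.p6, run 5′ to 3′ on the gene's strand, and stop before the first annotated exon base. The Ptn stretch of 209 bases (chr6:36810221-36810429, minus strand) holds 3 CG dinucleotides, and the Ptprz1 stretch of 250 bases (chr6:22875252-22875501, plus strand) holds 22.
Ptn: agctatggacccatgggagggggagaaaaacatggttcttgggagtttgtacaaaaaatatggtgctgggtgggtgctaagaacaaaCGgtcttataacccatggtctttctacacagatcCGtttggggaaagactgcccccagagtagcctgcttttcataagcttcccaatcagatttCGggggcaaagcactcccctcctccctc
Ptprz1: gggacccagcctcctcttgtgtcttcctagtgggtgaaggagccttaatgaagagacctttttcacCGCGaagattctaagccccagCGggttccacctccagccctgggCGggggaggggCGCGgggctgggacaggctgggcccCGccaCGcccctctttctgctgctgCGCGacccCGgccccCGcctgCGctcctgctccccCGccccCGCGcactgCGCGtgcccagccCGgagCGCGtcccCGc
Over 32851 upstream windows of 250 bases in RefSeq the median was 6 CG dinucleotides, and 85.2% of them held fewer than the window of Ptprz1. The full window of Ptn, which runs into annotated exon sequence, held 5. That of the receptor gene Ntrk2 held 19, and the 2 windows of Fgfr3 held 19 and 24, of which the first runs into annotated exon sequence and the other lies within the gene. The Sparc window lies inside the annotated gene and overlaps exons of other transcripts, so its count is not set beside these. The window counts describe the sequences and were not related to any level below.

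The control table had 2356 barcodes and 2330698 unique molecular identifiers (UMIs, 1 per captured RNA molecule), that of the runner library 3328 and 3808360, and that of the aged library 2421 and 2537567. Mitochondrially encoded UMIs made up a median of 36.6% to 46.3% per barcode. Barcodes with at least 200 genes and under 10% mitochondrially encoded UMIs were 21.8% of control, 29.1% of runner and 16.2% of aged barcodes, and after removal of doublet calls 512, 963 and 391 cells were used, with median depths of 1460, 1747 and 1409 UMIs. Pairs of libraries shared 8 to 10 barcode sequences, of which 2 were among the cells used, both in the runner and aged libraries. Clusters were made without the 6 genes and named from marker lists without them, and every class name means "like" that type. The astrocyte-like class held 64 control, 124 runner and 52 aged cells in 1 cluster, with all 18 astrocyte markers (Mt3, Slc1a2 and Aldoc leading) detected in each library. The class also carried UMIs of 10 or 11 of 11 listed neural stem cell genes, and no separate cluster was named after those cells.

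Sparc was above all a microglial transcript in these libraries. In microglia-like cells its level in CPM (UMIs of the gene per 1000000 UMIs summed over the class) was 3071 in control, 3213 in runner and 2749 in aged, and 88.9%, 93.5% and 87.6% of those cells carried a Sparc UMI. Microglia-like cells held 95% of all Sparc UMIs in control, 88.9% in runner and 93.1% in aged. Among the 7 classes with at least 10 cells in every library, the second in order of the median was the astrocyte-like one, at 161 CPM (14 UMIs) in control, 603 CPM (106 UMIs) in runner and 398 CPM (31 UMIs) in aged. The ranges of these classes over the 3 libraries did not overlap, and the astrocyte-like range lay above those of every neuronal and oligodendroglial class.

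**Figure D1:**
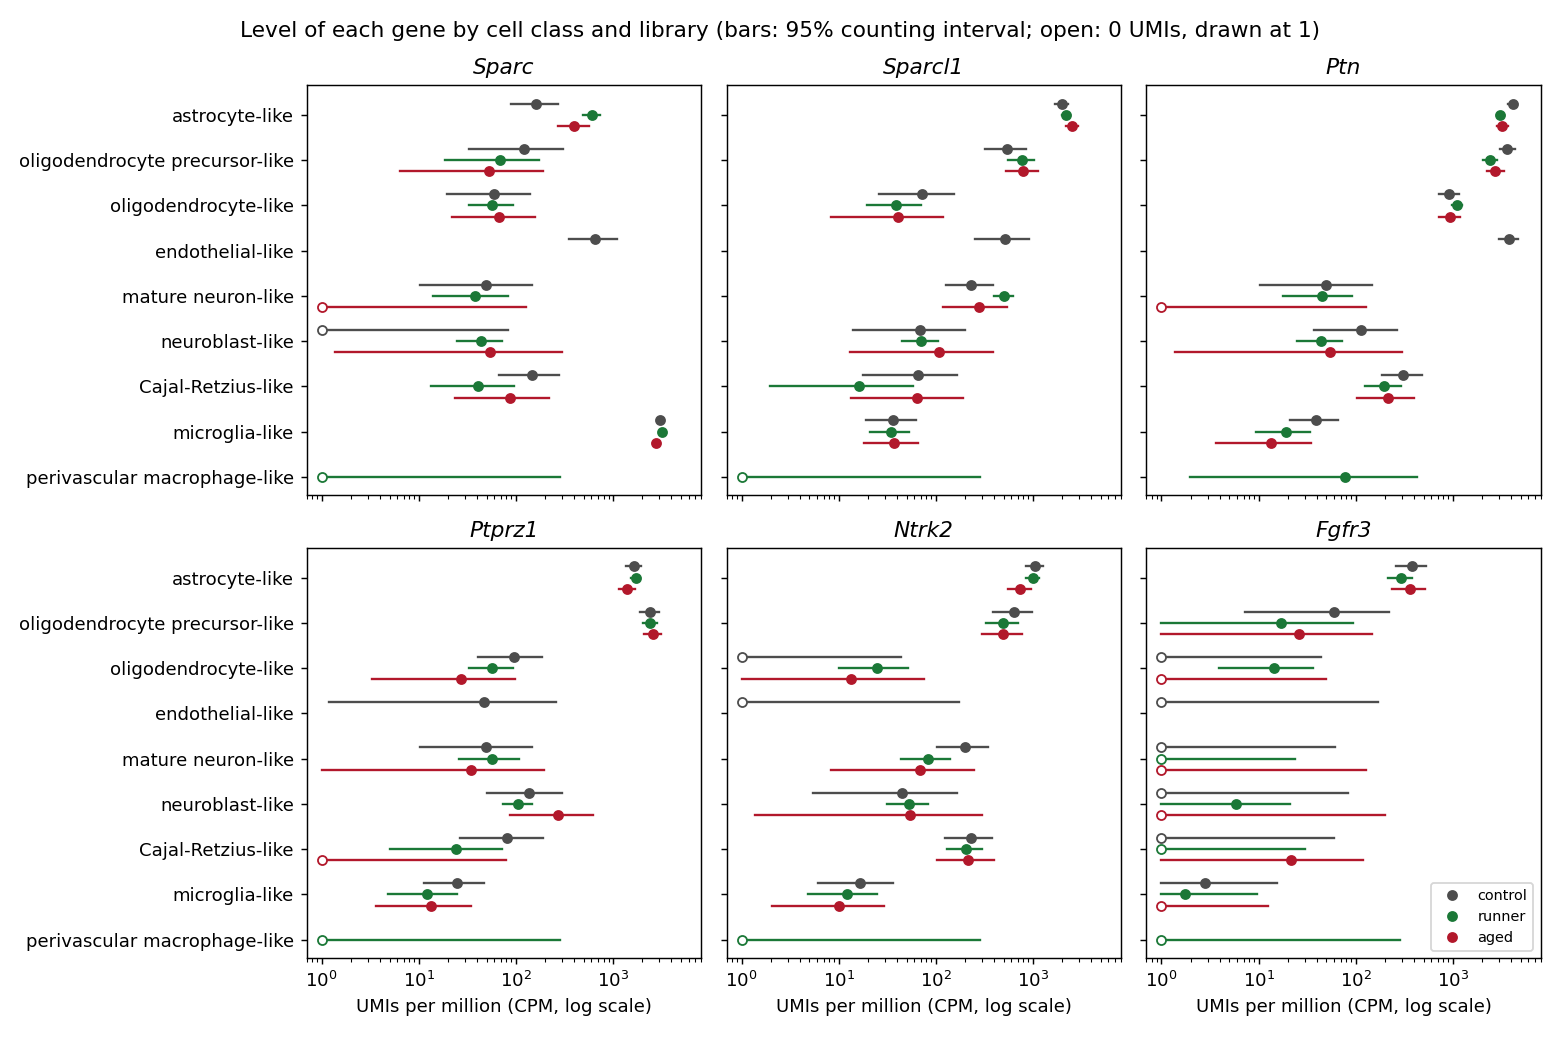
Level (CPM, log axis) of each gene in each cell class, 1 point per library with at least 10 cells of the class (grey control, green runner, red aged), with exact Poisson 95% intervals; open points are 0 UMIs drawn at 1. Sparc lies far to the right in microglia-like cells, where it reached 2749 to 3213 CPM, and the other genes lie to the right in astrocyte-like and oligodendrocyte precursor-like cells, except Fgfr3, which does so in astrocyte-like cells.

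Endothelial-like and cycling-like cells, with under 10 cells in at least 1 library, were left out of that order and had more Sparc than astrocyte-like cells in control. The 16 control endothelial-like cells held 14 Sparc UMIs (651 CPM), with a UMI in 9 cells, while the runner library had 1 such cell with 3 UMIs and the aged library 2 cells with 5. The cycling-like cluster, in which microglia markers summed to 8478 CPM in control and 19927 in runner, had Sparc at 477 and 1584 CPM. Sparc was low in the classes of neurons and of the oligodendrocyte lineage. It reached 147, 40.7 and 86.0 CPM in Cajal-Retzius-like cells of control, runner and aged, 121, 67.9 and 52.4 in oligodendrocyte precursor-like cells, and 59.5, 57.0 and 67.6 in oligodendrocyte-like cells. Control neuroblast-like cells and aged mature neuron-like cells had 0 Sparc UMIs, which with a floor of 3 counts allows up to 68.1 and 104 CPM. The 10 perivascular macrophage-like cells of the runner library also had 0 Sparc UMIs, although their microglia markers summed to 23151 CPM.

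Within the microglia-like class the level of Sparc differed by cluster. In the 3 large microglia-like clusters Sparc ranged from 2685 to 3971 CPM over the libraries. A cluster of shallow cells with a median of 785 UMIs (37 cells) had 1534 CPM in control, 1178 in runner and 2280 in aged. Another shallow cluster held 40 control, 3 runner and 14 aged cells and had 2749 CPM in control and 820 in aged. As a whole, microglia-like cells had a Sparc ratio of 1.05 (95% interval 0.971 to 1.13) in runner against control and of 0.895 (0.817 to 0.981) in aged against control.

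In astrocyte-like cells Sparc was 3.75 times as high in runner as in control (2.14 to 7.08) and 2.47 times as high in aged as in control (1.28 to 5.03). Both ratios use the same control library, in which the level rests on 14 UMIs in 13 of 64 cells. Sparc UMIs were seen in 20.3% of control, 49.2% of runner and 44.2% of aged astrocyte-like cells, at like median depths of 1303, 1305 and 1226 UMIs. After thinning every cell to 1000 UMIs the shares were 14.3%, 43.8% and 37.1% (49, 89 and 35 cells). In mature neuron-like cells, taken as a class that should lack Sparc, the shares were 3.23%, 10.3% and 0%, at median depths of 1819, 2824 and 1613 UMIs. No single cell made up the level: the cell with the most Sparc UMIs held 2, 6 and 4 of them, or 14.3%, 5.66% and 12.9% of the sum.

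Because microglia-like cells carried most Sparc UMIs, their markers were counted in the astrocyte-like cells of each library. The 17 microglia markers summed to 311 CPM in control, 444 in runner and 501 in aged, and 4, 0 and 4 of them were at 0. For every 100 microglia marker UMIs, astrocyte-like cells held 51.9 Sparc UMIs in control, 136 in runner and 79.5 in aged, against 6.47, 5.82 and 5.06 in microglia-like cells themselves. Other classes also stood above the microglia-like value. Oligodendrocyte precursor-like cells had 36.4, 11.8 and 18.2 Sparc UMIs per 100 marker UMIs in control, runner and aged, Cajal-Retzius-like cells 26.5, 11.4 and 26.7, and oligodendrocyte-like cells 18.5, 16.5 and 22.7. The 16 control endothelial-like cells had 70. Neuroblast-like cells had 0, 10.8 and 16.7 and mature neuron-like cells 5.66, 10.2 and 0. The ratios of these other classes rest on 0 to 16 Sparc UMIs each. In astrocyte-like cells without any microglia marker UMI, Sparc stood at 151 CPM in control (47 cells), 581 in runner (85 cells) and 421 in aged (35 cells). Endothelial markers were counted too, since that class also held Sparc. They summed to 702, 820 and 437 CPM in astrocyte-like cells, led by Bsg, with 10 of 14 at 0 in each library. The part of microglial and of endothelial RNA in the Sparc values was not tested.

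**Figure D2:**
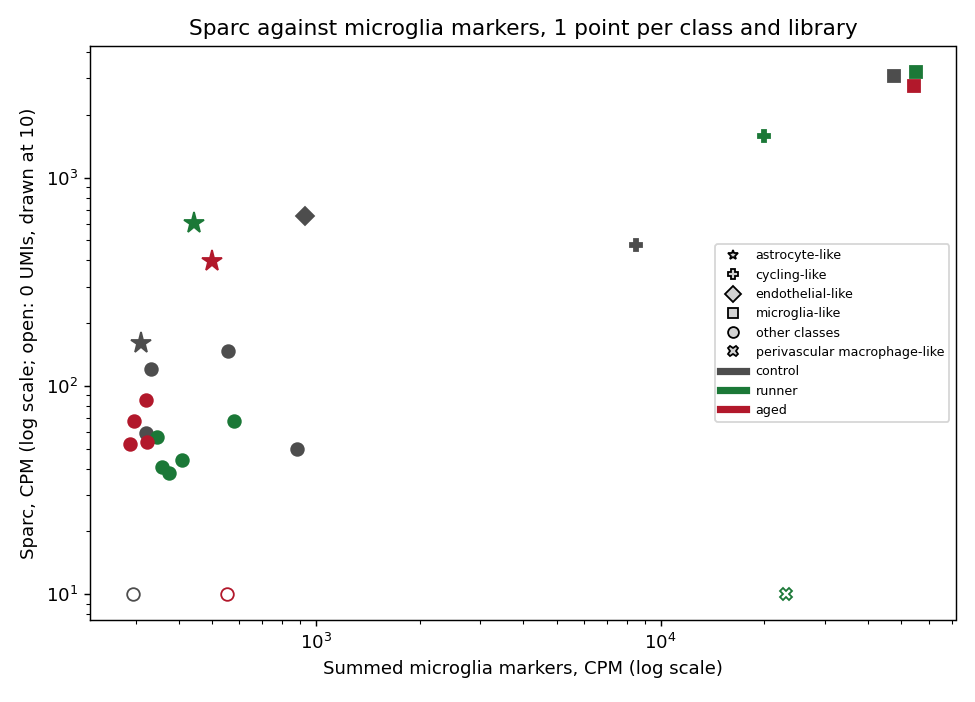
Sparc (vertical axis, CPM, log scale) against the summed level of 17 microglia markers (horizontal axis, CPM, log scale), 1 point per cell class and library with at least 10 cells; colours are libraries, shapes are classes, and open points are 0 UMIs drawn at 10. Astrocyte-like points (stars) have 311 to 501 marker CPM and 161, 603 and 398 Sparc CPM, and microglia-like points lie at the upper right.

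Sparcl1 had a different distribution from its family member Sparc. It was highest in astrocyte-like cells, at 1979 CPM in control, 2197 in runner and 2517 in aged, which held 71.1%, 67.6% and 76.6% of its UMIs. Oligodendrocyte precursor-like cells followed at 543, 763 and 786 CPM, then mature neuron-like cells at 232, 502 and 277. Microglia-like cells, at median depths of 1477, 1584 and 1408 UMIs, are not a known source of this or the other 4 genes and were read as the background level. There Sparcl1 stood at 36.2, 34.6 and 37.0 CPM, with a UMI in 5.33%, 5.38% and 5.47% of cells against 89.1%, 91.1% and 84.6% of astrocyte-like cells. The 16 control endothelial-like cells had 512 CPM from 11 UMIs.

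The Sparcl1 ratio in astrocyte-like cells was 1.11 (0.925 to 1.34) in runner and 1.27 (1.03 to 1.57) in aged against control, both under 1.5-fold. Under a mitochondrial limit of 5% in place of 10% the aged value turned to a log2 ratio of -0.26, from 15 aged and 19 control cells. In mature neuron-like cells Sparcl1 was 2.16 times as high in runner as in control (1.21 to 4.13), from 79 and 14 UMIs, with a ratio of 1.19 (0.432 to 3.04) in aged. The runner cells of that class were deeper, at a median of 2824 UMIs against 1819 in control. Thinned to 1000 UMIs, 43.6% of runner, 16.7% of control and 20% of aged mature neuron-like cells kept a Sparcl1 UMI.

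Ptn, the ligand, was high in 4 classes. Its levels were 4119, 3085 and 3248 CPM in astrocyte-like cells of control, runner and aged, and 3649, 2409 and 2751 in oligodendrocyte precursor-like cells. The ranges of these 2 classes over the libraries overlapped. Mature oligodendrocyte-like cells followed at 1081, 1221 and 933 CPM, while a smaller oligodendrocyte-like cluster with Enpp6 among its leading genes, a gene of newly formed oligodendrocytes, had 397 CPM in control (7 cells) and 189 in runner (11 cells). The fourth class was endothelial-like, in which all 16 control cells carried Ptn, 81 UMIs in all and 3768 CPM.

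In each library the astrocyte-like cells held more than any other class of the Ptn UMIs, at 52.6%, 51.3% and 56.0%. Oligodendrocyte-like cells held 11.3% in control, 29.4% in runner and 15.3% in aged, and they were 44, 120 and 46 cells. Microglia-like cells carried a Ptn UMI in 4.10%, 3.12% and 1.99% of cells, against 96.9%, 90.3% and 98.1% of astrocyte-like cells.

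Ptn was lower in both other libraries than in control in astrocyte-like and precursor-like cells. In astrocyte-like cells the ratio was 0.749 (0.654 to 0.858) in runner and 0.789 (0.669 to 0.929) in aged, both short of 1.5-fold. In oligodendrocyte precursor-like cells it was 0.660 (0.514 to 0.849) in runner, past 1.5-fold, and 0.754 (0.575 to 0.987) in aged. In oligodendrocyte-like cells it was 1.20 (0.936 to 1.57) and 1.02 (0.724 to 1.43). That class pools the mature cluster with the Enpp6 cluster, which had less Ptn and no aged cell. In the mature cluster alone Ptn stood at 1081 CPM in control, 1221 in runner and 933 in aged. Its aged level was thus under control there, with overlapping counting intervals (726 to 1180 and 841 to 1367). The precursor values rest on 20, 32 and 22 cells. After thinning, the runner log2 ratio in precursors was -0.19 instead of -0.60. The aged log2 ratio there, -0.41, was 0.04 at a mitochondrial limit of 20% and 0.18 at a clustering resolution of 0.5.

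**Figure D3:**
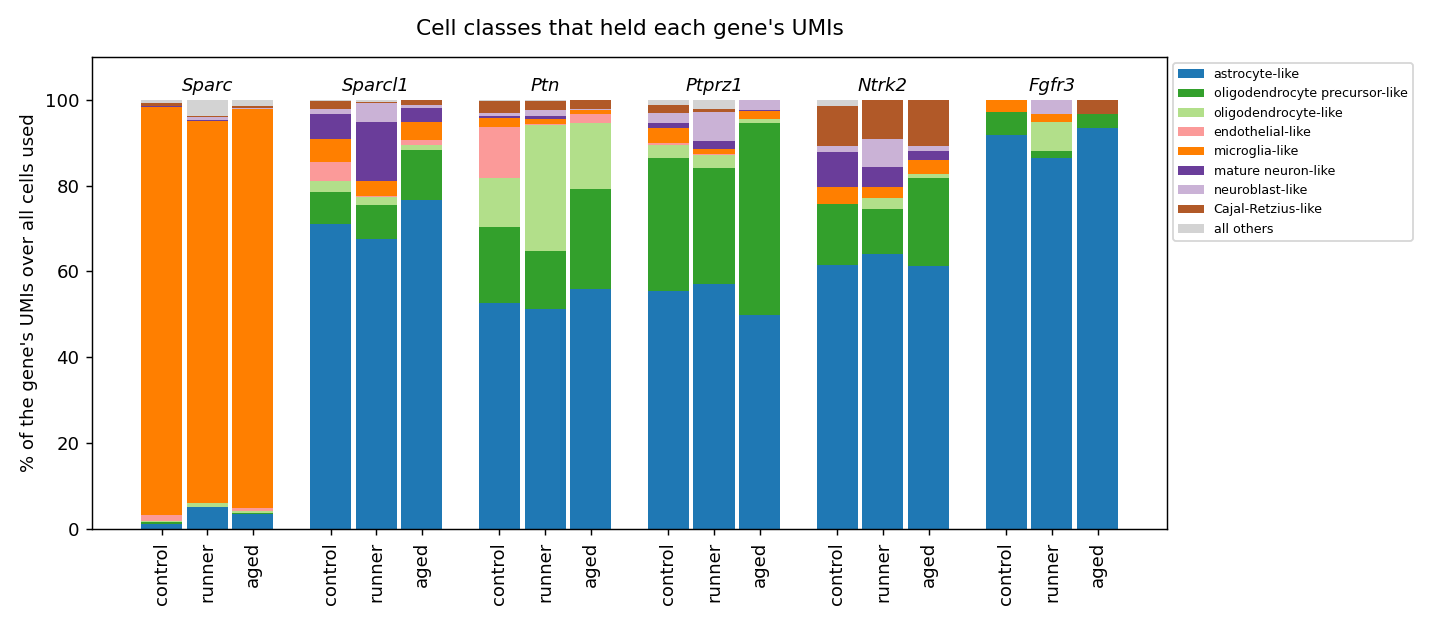
Share of each gene's UMIs (percent of its UMIs over all cells used) held by each cell class, 1 bar per gene and library. The Sparc bars are filled by microglia-like cells (88.9% to 95%), the Fgfr3 bars by astrocyte-like cells (86.4% to 93.3%), and the bars of the other 4 genes are shared between astrocyte-like cells and other classes.

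Ptprz1, the receptor of pleiotrophin, was the only one of the 6 genes with its highest median in oligodendrocyte precursor-like cells. It stood there at 2382 CPM in control, 2409 in runner and 2567 in aged, with a UMI in 20 of 20, 32 of 32 and 20 of 22 cells. Astrocyte-like cells had 1634, 1713 and 1400 CPM, a range that did not overlap with the precursor range. Among the 7 ranked classes neuroblast-like cells came next at 136, 106 and 269 CPM, from 6, 36 and 5 UMIs. The cycling-like class, outside that order, had 159 CPM in control (10 cells) and 250 in runner (15 cells).

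Along the oligodendrocyte lineage Ptprz1 was read in precursor-like cells and in the Enpp6 cluster, at 397 CPM in control and 441 in runner, but stood at 0, 8.03 and 27.0 CPM in the mature cluster. The Enpp6 cluster values rest on 8 UMIs in 3 of 7 control cells and 14 UMIs in 5 of 11 runner cells. The aged library had no cell of the Enpp6 cluster. Ptprz1 ratios in astrocyte-like cells were 1.05 (0.856 to 1.29) in runner and 0.857 (0.661 to 1.11) in aged, and those in precursor-like cells were 1.01 (0.763 to 1.35) and 1.08 (0.793 to 1.47). All 4 intervals included 1.

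Ligand and receptor were often read in the same cell. Both Ptn and Ptprz1 had a UMI in 87.5% of control, 73.4% of runner and 80.8% of aged astrocyte-like cells, and in 90%, 93.8% and 90.9% of precursor-like cells. In oligodendrocyte-like cells, which carried the ligand, the shares were 4.55%, 5% and 4.35%. In microglia-like cells they were 0.410%, 0% and 0%.

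Ntrk2, the TrkB gene, was highest in astrocyte-like cells, at 1047, 1002 and 732 CPM in control, runner and aged. Precursor-like cells followed at 633, 492 and 498 CPM and Cajal-Retzius-like cells, a reelin-producing neuron type of early development, at 229, 204 and 215. These 3 ranges did not overlap. Mature neuron-like cells had 199, 82.7 and 69.1 CPM, and microglia-like cells 16.7, 12.1 and 10.1. The astrocyte-like class held 61.5%, 64% and 61.3% of Ntrk2 UMIs. Shares of cells with an Ntrk2 UMI were 65.6%, 69.4% and 55.8% in astrocyte-like and 2.46%, 1.98% and 1.49% in microglia-like cells.

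In astrocyte-like cells the Ntrk2 ratio was 0.957 (0.739 to 1.25) in runner and 0.699 (0.493 to 0.984) in aged against control. In mature neuron-like cells the runner ratio was 0.415 (0.175 to 0.995), from 13 UMIs in runner and 12 in control. The shares of those neurons with an Ntrk2 UMI were 25.8% in control and 20.7% in runner. After thinning they were 8.33% (2 of 24 cells) and 12.7% (7 of 55 cells). The thinned shares ordered these 2 libraries opposite to the levels, but on so few cells that the order is not settled.

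Fgfr3 was read nearly only in astrocyte-like cells. It stood there at 380 CPM (33 UMIs) in control, 290 (51) in runner and 360 (28) in aged, and this class held 91.7%, 86.4% and 93.3% of its UMIs. Precursor-like cells had 2, 1 and 1 UMIs (60.3, 17.0 and 26.2 CPM). Other classes with at least 10 cells had 0 to 4 Fgfr3 UMIs in each library. A UMI was seen in 42.2%, 31.5% and 38.5% of astrocyte-like cells and in 1, 1 and 0 of 244, 353 and 201 microglia-like cells. The ratios in astrocyte-like cells were 0.764 (0.484 to 1.22) in runner and 0.947 (0.551 to 1.62) in aged, and both intervals included 1.

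Set against all genes, the group of 6 did not stand out in astrocyte-like cells by the count past 1.5-fold or by the median. All 6 had at least 20 UMIs in each pair of libraries, the minimum for a ratio. In runner against control 1 of them, Sparc, was past 1.5-fold higher, beside 19.4% of 2009 genes, and 0 were past it lower, beside 10.1%. Their median log2 ratio was 0.00 beside 0.07 over all genes. In aged against control 1 was past 1.5-fold higher, Sparc again, beside 13.4% of 1157 genes, and 0 lower, beside 14%. The medians there were -0.15 for the 6 genes and -0.03 over all genes. The Sparc ratio itself exceeded that of 98.7% of the 2009 genes in runner and 97.6% of the 1157 in aged. Both rest on the same 14 control UMIs.

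**Figure D4:**
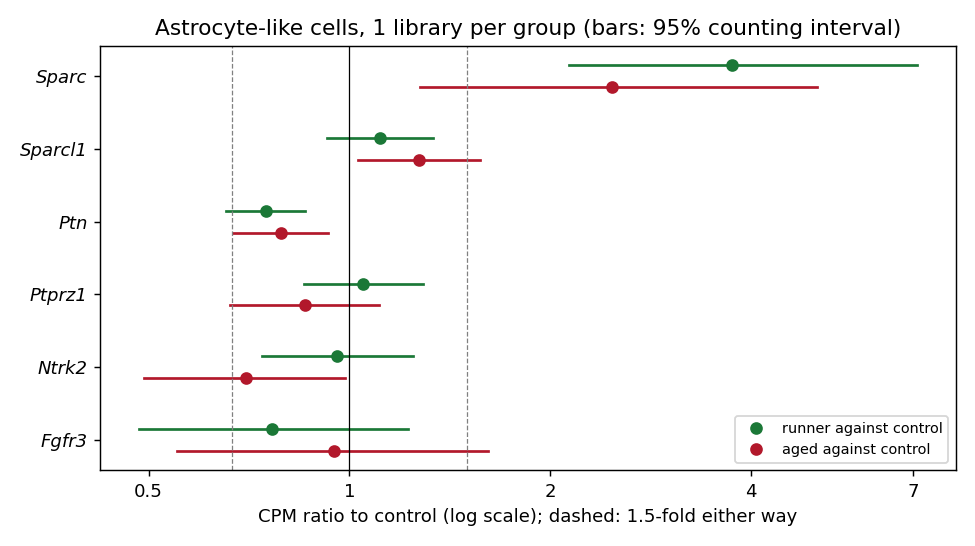
Ratio of CPM to the control library in astrocyte-like cells (log axis) for runner (green) and aged (red), with exact conditional 95% intervals and dashed lines at 1.5-fold. Sparc lies to the right at 3.75 and 2.47, Ptn to the left at 0.749 and 0.789, and the intervals of Ptprz1 and Fgfr3 cross 1 in both comparisons.

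In the other classes fewer of the 6 genes reached 20 UMIs. In runner against control 1 of 4 was past 1.5-fold lower in oligodendrocyte precursor-like cells (Ptn), beside 14.3% of genes. In mature neuron-like cells 1 of 2 was higher (Sparcl1), beside 20.3%, and 1 lower (Ntrk2), beside 14.5%. Ptprz1 was lower in oligodendrocyte-like cells at 0.598, 1 of 3 genes beside 14.1%. It was not lower in runner within the clusters of that class. The Enpp6 cluster had 397 CPM in control and 441 in runner, and the mature cluster 0 and 8.03. The Enpp6 cluster held 8 of the 8 control and 14 of the 16 runner Ptprz1 UMIs of the class. It was 7 of 44 control and 11 of 120 runner cells. Ptn was lower in neuroblast-like cells at 0.388, 1 of 4 beside 14.3%, in Cajal-Retzius-like cells at 0.630, 1 of 2 beside 10.1%, and in microglia-like cells at 0.489, 1 of 3 beside 8.87%. None of the 6 genes with enough UMIs was past 1.5-fold higher in the precursor-like, oligodendrocyte-like, neuroblast-like, Cajal-Retzius-like or microglia-like class, beside 18.1%, 17.6%, 26.8%, 18.2% and 14.7% of genes. The intervals of the 4 lower values in oligodendrocyte-like, neuroblast-like, Cajal-Retzius-like and microglia-like cells included 1. In that order they rest on 16 and 8, 15 and 5, 24 and 19, and 11 and 14 UMIs in runner and control. In control 1 microglia-like cell held 5 of the 14 Ptn UMIs. In aged against control 0 of the genes were past 1.5-fold in the 5 other classes in which any reached 20 UMIs: precursor-like (13.4% of all genes higher and 19% lower), oligodendrocyte-like (16.4% and 17.9%), mature neuron-like (14.1% and 21.9%), Cajal-Retzius-like (13.3% and 19.7%) and microglia-like cells (15.3% and 10.8%).

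The astrocyte-like cells were divided once more, without the 6 genes, into 3 subclusters. The first (89 cells) was led by Ddhd1 and Pcdh17, the second (85 cells) by Hsd11b1 and Tagln3. The last (66 cells) was led by Junb, Stmn1, Fos and Jun, of which Junb, Fos and Jun are immediate early genes that dissociation can also raise. Neural stem cell genes summed to 945, 1773 and 3439 CPM in the 3 subclusters. The last held 17 control, 41 runner and 8 aged cells.

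Fgfr3 was lowest in the last subcluster in every library. It stood at 172, 91.0 and 0 CPM there in control, runner and aged, from 4, 6 and 0 UMIs, against 548, 606 and 488 in the first subcluster and 386, 292 and 433 in the second. Ptn was also lowest there in every library, at 2792, 2320 and 2548 CPM, against 3250 to 4965 in the other subclusters. Ptprz1 was higher there in control and runner, at 2234 and 2380 CPM against 1080 to 1698 elsewhere, but not in aged, at 1185 CPM from 8 cells.

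Sparc was likewise highest in the last subcluster, at 344, 925 and 533 CPM. It was lower in control than in runner and aged in each of the 3 subclusters: 183 against 437 and 418 CPM in the first, and 27.6 against 394 and 310 in the second. The control values rest on 5, 1 and 8 UMIs. Microglia markers summed to 411, 423 and 433 CPM in the 3 subclusters. Sparcl1 was lowest in the last subcluster in control and runner, at 1503 and 1440 CPM, and highest there in aged, at 2666. Ntrk2 had no common order of subclusters over the libraries.

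**Figure D5:**
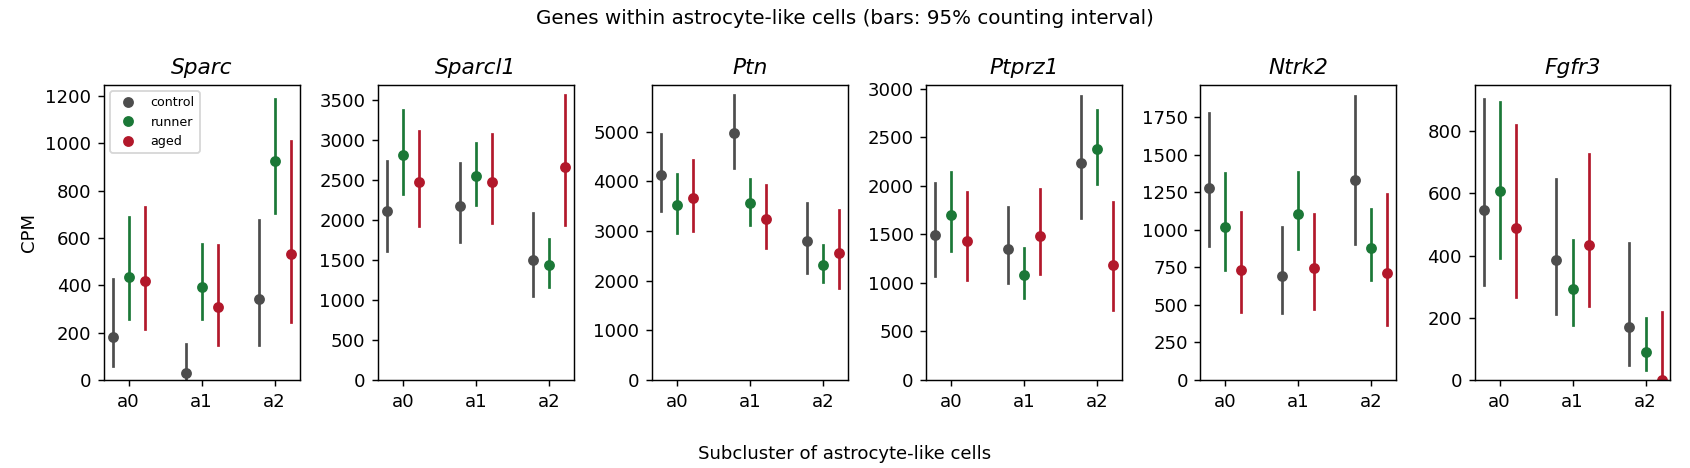
CPM of each gene (linear axes that start at 0) in the 3 subclusters of astrocyte-like cells, a0 to a2 for first to last, 1 point per library with exact Poisson 95% intervals. Fgfr3 and Ptn are lowest in the last subcluster in all 3 libraries, and the control points of Sparc (183, 27.6 and 344 CPM) lie under the runner and aged points in each subcluster.

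Counted per cell, 4 or more of the 6 genes had a UMI in 75% of control, 71.8% of runner and 65.4% of aged astrocyte-like cells, and in 59.2%, 64.0% and 68.6% after thinning to 1000 UMIs. The order of the libraries turned with thinning. In precursor-like cells the shares were 50%, 46.9% and 31.8%, or 21.1%, 25% and 11.8% after thinning. In every other class with at least 10 cells the share was at most 10%.

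Genes of the same pathways were taken from 7 lists with 84 further genes, of which 72 were listed in the tables. Among those with at least 20 UMIs in astrocyte-like cells, 2 of 19 were past 1.5-fold higher and 1 lower in runner, beside 19.4% and 10.1% of all genes. In aged 1 of 16 was higher and 2 lower, beside 13.4% and 14%. In runner the higher ones were Ncl (nucleolin, a surface binder of pleiotrophin, 1.65, 0.763 to 3.95) and Ctnnb1 (beta-catenin, a substrate of Ptprz1, 1.58, 0.554 to 5.52). In aged the higher one was Lrp1 (an endocytic receptor, 1.83, 0.817 to 4.28) and 1 of the lower ones Spry2 (a feedback inhibitor of growth factor signals, 0.614, 0.266 to 1.34). All 4 of these intervals included 1.

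Ptprs, a phosphatase that binds chondroitin sulfate proteoglycans, was lower in both libraries. It stood at 357 CPM in control (31 UMIs), 148 in runner (26) and 128 in aged (10) in astrocyte-like cells, with ratios of 0.415 (0.237 to 0.722) and 0.360 (0.157 to 0.753). Other pathway genes with many UMIs in that class included Bcan, Cspg5, Ncan and Sdc4, with ratios of 0.785 to 1.25 over both comparisons. They encode the proteoglycans brevican, neuroglycan C, neurocan and syndecan 4.

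Counts by list include the 6 genes. The SPARC family list had 1 higher (Sparc) and 0 lower of 2 measured genes in both comparisons. Those 2 genes were Sparc and Sparcl1 themselves, since no other gene of that list had enough UMIs for a ratio. The median of that list given below is therefore that of Sparc and Sparcl1 alone, and a shift of the wider family was not tested. The pleiotrophin and midkine list had 1 higher and 1 lower of 10 in runner and 1 and 1 of 9 in aged. The list of Ptprz1 substrates and lecticans had 1 higher (Ctnnb1) and 0 lower of 5 in runner, and 0 past 1.5-fold of 4 in aged. The list of FGF and ERK feedback targets had 0 past it of 2 in runner, and 0 higher and 1 lower of 2 in aged. The FGF ligand and receptor list (2 and 2 genes), the hevin partners (3 and 2) and the neurotrophin list (only Ntrk2) had 0 past 1.5-fold either way. The shares over all genes given above, 19.4% higher and 10.1% lower in runner and 13.4% and 14% in aged, are the background of these counts. List medians on the log2 scale in runner and aged were 1.03 and 0.83 for the SPARC family, 0.07 and -0.22 for the pleiotrophin and midkine list, -0.03 and -0.07 for Ptprz1 substrates, 0.08 and 0.46 for hevin partners, -0.12 and -0.06 for FGF ligands and receptors, and -0.34 and -0.20 for feedback targets, beside 0.07 and -0.03 over all genes.

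The relatives of the 6 genes led in several classes. Mdk, the midkine gene and closest relative of Ptn, had its highest median in neuroblast-like cells, at 377 to 840 CPM over the libraries. The receptor gene Fgfr1 led in astrocyte-like cells (180 to 205 CPM), as Fgfr3 did, and Fgfr2 in oligodendrocyte-like cells (190 to 406 CPM). The Ntrk2 relative Ntrk3 led in mature neuron-like cells, at 183 to 415 CPM, as did Bdnf, the ligand of TrkB, at 83.0 to 254. Of the SPARC family, Spock1 and Spock3 led in oligodendrocyte-like and Spock2 in Cajal-Retzius-like cells. Dusp6, a phosphatase that limits ERK signals, led in microglia-like cells at 525 to 773 CPM.

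Likeness to each gene was measured by Pearson's r of log2(CPM + 10) over 25 sums of a class in a library, among 2548 genes with at least 200 UMIs. The sums share libraries and differ in depth, so r is a description. The genes compared included markers used to name the classes, among them Aldoc, Cldn10, Gpr37l1 and Cspg5, whose r is not independent of the classes. Nearest to Sparc were Cd164 (r = 0.852), Mertk (0.833), Ecscr (0.803) and P2ry13 (0.800). Nearest to Sparcl1 were Cspg5 (0.861), Ntm (0.848), Nkain4 (0.841) and Ntsr2 (0.839), and nearest to Ptn were S100a1 (0.883), S100a16 (0.866), Fermt2 (0.862) and Dbi (0.854). Ptprz1 had the closest neighbours, Fabp7 (0.944) and Cspg5 (0.916), then Gpr37l1 (0.883) and Mmd2 (0.856). Ntrk2 was nearest to Gpm6a (0.911), Pnisr (0.850), Gm3764 (0.840) and Atp1b2 (0.838), and genes near Fgfr3 included Aldoc (0.883), Cldn10 (0.873) and Cxcl14 (0.862). With an offset of 50 CPM, 2 to 4 of the 4 nearest genes of each member were the same.

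Among themselves the genes fell into 1 and 5. They were chosen for their cell types in these data, so this split restates the class levels above and is no separate result. Sparc had r between -0.13 and 0.14 with each of the other 5 genes, while those 5 had r between 0.49 and 0.79 with each other, with the highest for Sparcl1 and Ptprz1 (0.785) and the lowest for Ptn and Ntrk2 (0.492).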

How the data were processed

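Single cells of dissociated mouse dentate gyrus were profiled in 3 droplet libraries. Each library has 1 table of UMI counts, deposited by the authors as whole numbers under gene symbols. The submitters' processing notes name Cell Ranger 2.1.1, Seurat 3.1.0 and the build GRCm38, without their roles. The annotation release, the calling of barcodes as cells and how reads over overlapping genes were handled are not stated in any source at hand. The 6 genes and all gene lists were chosen with earlier results of these data known.

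Barcodes with at least 200 genes and under 10% mitochondrially encoded UMIs were kept, and Scrublet doublet calls at an expected rate of 0.05 were removed per library (2, 6 and 2 cells). Counts were scaled to 10000 per cell, and 2000 variable genes without the 6 genes gave 30 principal components, 15 neighbours and 16 Leiden clusters at resolution 1 (Python 3.11.15 with igraph 0.11.9, leidenalg 0.10.2, scanpy 1.11.5 and scikit-learn 1.9.0). No batch correction was applied. A cluster took the name of the list, of 21, with the most markers among its 10 leading genes, if at least 3 markers were in 25% of cells at 2-fold or more and the mean log2 fold was at least 1. One cluster with T cell genes stayed unnamed, and a cluster with 3 proliferation genes in at least 50% of cells was called cycling. Names were rebuilt and may differ from those of the study.

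Levels (CPM) are a gene's UMIs summed over a class in a library, divided by the sum over all genes and multiplied by 1000000, for classes with at least 10 cells. Intervals are exact at 95% (Poisson for levels, Clopper-Pearson for shares, conditional binomial for ratios, checked on simulated counts, SciPy 1.17.1). A gene was past the fold at 1.5-fold with at least 20 UMIs in both libraries together. No p-value was computed. The text names the 6 genes, pathway genes past the fold in astrocyte-like cells, the 5 others with the most UMIs there, and the 4 genes most like each; some genes this rule selects are not reported here. Relatives of the 6 genes described by leading class were singled out after their values were seen. Alternatives changed the clustering, the filters, the depth, the denominator and the fold.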

Additional observations from a re-analysis of the deposited data

Results flagged for a closer look

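Barcodes with at least 10% mitochondrially encoded UMIs entered none of the comparisons, and all 6 genes were also counted in them. These 5656 barcodes with at least 200 genes held 1690 Sparc, 2877 Sparcl1, 2486 Ptn, 1233 Ptprz1, 1066 Ntrk2 and 246 Fgfr3 UMIs. Scaled as CPM of the UMIs that were not mitochondrially encoded, Sparc stood at 569 in them against 1370 in the cells used. The other 5 genes were higher in them than in the cells used: Sparcl1 at 969 against 355, Ptn at 837 against 726, Ptprz1 at 415 against 332, Ntrk2 at 359 against 171 and Fgfr3 at 82.9 against 41.5. In the aged library alone Ptn was lower in them, at 685 against 794. These barcodes were given no cell class, and no group has enough libraries for a search for outlying samples.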

How the results depend on the processing

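Of 264 ratio values under alternative settings 253 stayed within the counting interval of the reported value and 11 lay outside it. No called direction turned, but only ratios past 1.5-fold had one. These were Sparc in astrocyte-like cells of both comparisons, and Ptn in precursor-like and Sparcl1 in mature neuron-like cells of runner. Ratios without a call did change sign, among them Ptn in aged precursor-like cells, from -0.41 to as much as 0.18. Of 1380 levels 57 lay outside. At a mitochondrial limit of 5% the log2 ratio of Sparcl1 in aged against control astrocyte-like cells was -0.26. With the aged library in place of control, an alternative chosen after seeing the data, the runner log2 ratios in astrocyte-like cells were 0.60 for Sparc, -0.20 for Sparcl1, -0.075 for Ptn and 0.45 for Ntrk2, and 0.23 for Sparc in microglia-like cells. Over all settings the astrocyte-like log2 ratio of Sparc ran from 0.60 to 1.97 in runner and from 0.89 to 1.49 in aged. The 0.60 is the value against the aged library, so it is not a runner against control ratio. Genes past 1.5-fold in astrocyte-like cells numbered 389 higher and 203 lower in runner, and 155 and 162 in aged. With at least 10 UMIs they numbered 982, 599, 547 and 517, with at least 50 UMIs 76, 41, 23 and 42, and at 2-fold 173, 57, 65 and 41, since these settings test other numbers of genes or ask for a larger fold. The cause of the other shifts was not tested. No paired analysis was possible because each group has 1 library and the labels give no replicate numbers. For the same reason no library could be left out within a group. Depth limits the astrocyte-like values of Sparc in control and of Fgfr3, which rest on 14 to 51 UMIs.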
